A study of Mus musculus with 9 samples.

Results

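The second maturation step of cultured mouse megakaryocytes was described by setting the 2 arrays titled MK4 against the 2 arrays titled MK3, 4 of the 9 arrays of the series. Megakaryocytes are the large marrow cells that shed platelets. The 9 arrays covered the stages MKP (2 arrays), MK3 (2), MK4 (2) and MK6 (3). Per the design text, bone marrow or fetal liver preparations grown in thrombopoietin, the hormone that drives this lineage, were harvested on days 3, 4 and 6 and sorted for high CD41, the integrin alpha chain that marks megakaryocytes, and for forward scatter, which follows cell size. MK4 and MK3 cells therefore shared the species, the cytokine and the kind of sort. The numbers in the stage names match the days of harvest, but no label states the day, the source organ, the size gate, the strain or the number of animals of an array, nor whether a stage was grown more than once. P-values accordingly measure only the spread between these arrays, which may be technical.

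Every gene was read from the probe set with the highest mean of those annotated to that gene alone. Its values are given as scaled signal, the deposited intensity after all arrays were brought to one trimmed mean, always with array 1 of a stage before array 2. The members of the comparison were all 20380 probe sets with 1 gene symbol, which stand for 12393 genes. The filter on low values (a scaled signal above 46.7 on at least 2 of the 9 arrays) kept 9382 genes for testing, and a difference is MK4 minus MK3 in log2(scaled signal + 15.2), with its standard error from limma after the ± sign.

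As background, a maturing megakaryocyte replicates its DNA without dividing, enlarges its cytoplasm, and fills it with alpha granules, which carry adhesion proteins and chemokines, and with dense granules, which carry small mediators, before it extends proplatelets. The transcription factors GATA1, NF-E2, FLI1 and RUNX1 control much of this programme. Cells that make large amounts of secretory protein also draw on the amino-acid response, in which the factor ATF4 raises transcription of amino-acid transporters, of synthetic enzymes and of the aminoacyl-tRNA synthetases that load amino acids onto their tRNAs. CD41+ sorts from liver or marrow cultures can also hold macrophages, granulocytes and hepatocytes or their RNA, so markers of these cells were read beside every list.

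The MK3 arrays differed from each other more than the MK4 arrays did. Over the 9382 genes, which are not independent replicates, the SD of the difference between the arrays was 0.479 on the log2 scale for MK4 and 0.581 for MK3. Array 1 of MK3 had less signal for the megakaryocyte receptors and more for the macrophage markers than array 2. The summed scaled signal of 24 receptor genes was 21254 and 18846 in MK4 and 13220.2 and 23572 in MK3, and that of 23 macrophage markers was 25604 and 35925 in MK4 and 59062 and 31218 in MK3. Neither sum separated the stages, and the part of this contrast between the MK3 arrays in the results was not tested. RNA quality was read from control probe sets, and its part in this contrast was not tested. The 3' to 5' ratio of the beta-actin control, which climbs as RNA fragments, was 1.04 and 1.09 in MK4 and 0.997 and 1.08 in MK3. That of the Gapdh control was 0.957 and 0.805 in MK4 and 0.875 and 0.970 in MK3. Trimmed means before scaling were 200.5 and 196 in MK4 and 123 and 221 in MK3. CD41 itself (Itga2b), on which the cells were sorted, had signals of 3422 and 2531 on the MK4 arrays, against 977 and 2749 on the MK3 arrays, so the marker was present on all 4 arrays and the stages overlapped.

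Only 1 gene passed the test between the stages. Transthyretin (Ttr) fell in MK4, and no gene rose at an adjusted p below 0.05 (limma with Benjamini-Hochberg adjustment over 9382 genes, 1 called or 0.0107%). At an unadjusted p below 0.05 there were 338 genes, 3.6% of those tested. An exact permutation of 2 arrays against 2 cannot give a two-sided p below 0.333, so single genes are described below by their arrays. Both MK4 arrays lay above both MK3 arrays for 1647 genes (17.6%) and below both for 1184 genes (12.6%), together 30.2%. These shares are the background against which each list is read. They also depend on the scaling, since a common median in place of a common trimmed mean gave 876 genes higher and 2076 lower and shifted the median of all genes from 0.05 to -0.06. Examples at the edge of the criterion follow. Pla2g4a, the phospholipase that frees arachidonate, was just inside it with 651 and 545 on the MK4 arrays, against 194 and 534 on the MK3 arrays, and Ifit2, an interferon-induced RNA-binding protein, was just outside it with 144 and 738 on the MK4 arrays, against 895 and 685 on the MK3 arrays. A gap of at least 1 log2 unit between the nearest arrays of the stages was seen for 12 genes higher in MK4 (0.128%) and 20 genes lower (0.213%).

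**Figure D1:**
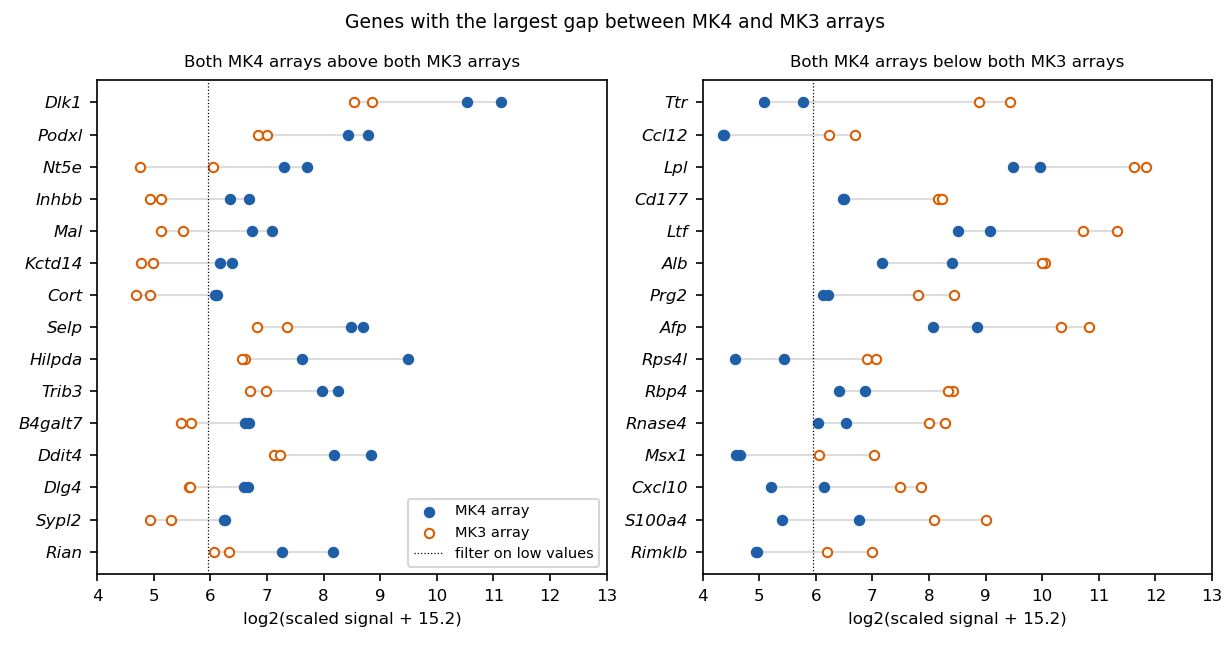
Scaled signal on a log2 scale (horizontal axis) of the 15 genes with the widest gap in each direction, with 1 point per array, filled for MK4 and open for MK3. Ttr has the widest gap of all, and on the left panel several genes lie close to the dotted filter line.

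Liver-secreted proteins made up the clearest group on the lower side. Ttr, which carries thyroid hormone and the retinol-binding protein in blood, had signals of 18.7 and 39.7 on the MK4 arrays, against 671 and 455 on the MK3 arrays. The groups stood far apart, with a difference of -3.72 ± 0.38 (adjusted p = 0.00901, limma), and all 3 of its probe sets were lower on both MK4 arrays. Ttr passed the filter on low values only through the MK3 arrays, and its MK4 signals lay below the filter, so the size of its difference depends on the pseudocount. The call needed all 4 arrays. The adjusted p was 0.668 without MK3 array 1, 0.0803 without MK3 array 2, 0.214 without MK4 array 1 and 0.0545 without MK4 array 2, while the difference stayed between -4.07 and -3.37.

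Most other hepatocyte markers lay on the same side without passing the test. Of 17 markers on the array, Ttr among them, 16 were tested. Of these, 13 (81.2%, against 12.6% of all genes) were lower on both MK4 arrays and none was higher on both. The median difference of the 16 was -1.45 beside 0.05 for all genes. Only 7 passed the stricter filter at the 60th percentile, and all 7 were lower on both MK4 arrays (13.9% of all genes there). In bulk RNA of this kind, fewer cells of a type and less RNA per cell cannot be told apart. Albumin (Alb), the main serum protein, had 129 and 325 on the MK4 arrays, against 1039 and 1006 on the MK3 arrays. Its fetal counterpart alpha-fetoprotein (Afp) had 255 and 447 on the MK4 arrays, against 1804 and 1279 on the MK3 arrays. The 2 stages did not overlap for either gene, and array 1 of MK4 was the lowest of the 4 for both. The retinol carrier Rbp4 read 70.2 and 101 in MK4 and 326 and 306 in MK3. The fibrinogen beta chain (Fgb) was spread more widely, at 5.54 and 139.9 in MK4 and 291 and 189 in MK3, and array 2 of MK4 came near the MK3 range. Hnf4a, a transcription factor of hepatocytes, did not follow the secreted proteins, with 63.9 and 39.2 in MK4 and 23.9 and 55.3 in MK3.

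The Alb and Afp promoters are shown because HNF1, a factor that drives liver-secreted genes, has a known element in both. The letters GTTAATNAT were found on either strand of the 250 bases before the start (RefSeq, GRCm38.p6) for 3 of 14 hepatocyte markers with a promoter in the table (21.43%), against 44 of 7617 tested genes (0.5777%). The 3 were Afp, Alb and Fga. The list holds these genes with a known element, so the share describes the choice of genes as well. A match describes the letters in this window, and the match is in capitals.
Alb (chr5:90460620-90460869, plus strand): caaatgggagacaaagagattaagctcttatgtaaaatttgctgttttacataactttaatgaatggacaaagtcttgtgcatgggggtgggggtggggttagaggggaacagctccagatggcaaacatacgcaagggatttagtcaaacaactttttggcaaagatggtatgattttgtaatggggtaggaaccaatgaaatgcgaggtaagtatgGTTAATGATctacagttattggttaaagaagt
Afp (chr5:90490464-90490713, plus strand): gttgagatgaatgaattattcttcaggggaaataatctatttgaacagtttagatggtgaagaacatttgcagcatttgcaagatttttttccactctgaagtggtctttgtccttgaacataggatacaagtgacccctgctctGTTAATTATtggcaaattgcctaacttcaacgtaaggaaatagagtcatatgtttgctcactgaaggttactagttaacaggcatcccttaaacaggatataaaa

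The summed signal of the 17 hepatocyte markers across the stages was 1071 and 961 in MKP, 5322 and 4374 in MK3, 887 and 1720.3 in MK4 and 929, 361 and 645 in MK6. MK3 stood above every other stage, and MK4 array 2 was the highest array outside MK3. The labels do not name the source organ of any array, and the part that hepatocyte RNA had in other differences was not tested. Without MK3 array 1 the median difference of the list was -1.35, so its sign did not rest on that array. Its size varied with the MK4 arrays, at -0.81 without MK4 array 1 and -1.85 without MK4 array 2.

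The amino-acid response was the clearest group on the higher side. All 30 tested genes of the list of amino-acid response genes and aminoacyl-tRNA synthetases had positive differences, from 0.04 to 1.50. In 24 of the 30 (80%, against 17.6% of all genes) both MK4 arrays were above both MK3 arrays, and in none were both below. The median difference was 0.57, and no member passed the test alone. Under a common median the count was 16 of 30 with 1 gene lower on both arrays, and under quantile normalization it was 24. Without MK3 array 1 it was 27 of 30 with a median of 0.36, but with a single MK3 array 39.8% of all genes met the criterion. Under a common median the share of all genes was 9.4%.

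Promoters of the list show the DNA element through which ATF4 and its partner CHOP act. The element TGATGNAA was searched on both strands of the 250 bases before the start of each gene in RefSeq (GRCm38.p6), where N is any base, and a match on the opposite strand is printed as it reads on the gene's strand. It was found for 8 of 24 list genes with a promoter in the table (33.33%), against 200 of 7617 tested genes (2.626%). The 8 were Aars, Asns, Chac1, Gars, Nupr1, Slc7a11, Tars and Vldlr. A match describes these letters and does not show that the factor binds there. The list holds known ATF4 targets, so the share describes the choice of genes as well. Printed below are 4 of them that stand for different roles (synthesis, glutathione breakdown, cystine import and lipoprotein uptake), with the matches in capitals.
Asns (chr6:7693210-7693459, minus strand): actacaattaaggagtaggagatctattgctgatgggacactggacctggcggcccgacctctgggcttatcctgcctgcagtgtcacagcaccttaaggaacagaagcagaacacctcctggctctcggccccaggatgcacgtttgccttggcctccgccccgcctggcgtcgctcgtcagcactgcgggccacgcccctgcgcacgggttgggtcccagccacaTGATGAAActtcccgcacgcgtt
Chac1 (chr2:119350992-119351241, plus strand): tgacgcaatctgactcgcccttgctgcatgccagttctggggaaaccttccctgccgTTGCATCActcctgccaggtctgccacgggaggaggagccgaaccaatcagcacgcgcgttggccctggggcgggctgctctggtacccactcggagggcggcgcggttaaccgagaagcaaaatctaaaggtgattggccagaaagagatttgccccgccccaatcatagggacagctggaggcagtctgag
Slc7a11 (chr3:50443614-50443863, minus strand): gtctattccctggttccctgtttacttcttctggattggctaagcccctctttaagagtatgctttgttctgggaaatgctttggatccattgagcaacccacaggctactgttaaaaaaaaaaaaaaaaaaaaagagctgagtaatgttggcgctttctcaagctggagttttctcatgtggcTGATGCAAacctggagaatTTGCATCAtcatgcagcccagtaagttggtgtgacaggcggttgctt
Vldlr (chr19:27216770-27217019, plus strand): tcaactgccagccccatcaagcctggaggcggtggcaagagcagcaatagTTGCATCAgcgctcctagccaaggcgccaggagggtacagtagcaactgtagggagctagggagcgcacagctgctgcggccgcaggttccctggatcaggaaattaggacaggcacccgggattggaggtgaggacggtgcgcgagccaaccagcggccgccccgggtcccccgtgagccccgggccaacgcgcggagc

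A receptor and transporters of the list are given first. Vldlr, a lipoprotein receptor that ATF4 also controls, had 395 and 309 on the MK4 arrays, against 55.3 and 219 on the MK3 arrays. Its difference of 1.50 ± 0.48 was 0.64 without MK3 array 1, which was the lowest of the 4, while MK3 array 2 lay nearer to MK4. The cystine carrier Slc7a11 had 93.8 and 120.5 on the MK4 arrays, against 72.5 and 31.6 on the MK3 arrays. The glycine carrier Slc6a9 had 464 and 309 on the MK4 arrays, against 186 and 213 on the MK3 arrays. Slc3a2 and Slc7a5, the heavy and light chains of a carrier for large neutral amino acids, also stood higher. Slc3a2 read 2352 and 2477 in MK4 and 1632 and 1631 in MK3, with both MK3 arrays alike, and Slc7a5 read 597 and 629.6 in MK4 and 214 and 495 in MK3, with array 1 of MK3 well below array 2. Without that array the difference of Slc7a5 was 0.30 in place of 0.88.

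Enzymes of amino-acid synthesis were also higher on both MK4 arrays. Asparagine synthetase (Asns) had 1380.3 and 1079.6 on the MK4 arrays, against 539 and 901 on the MK3 arrays. Aldh18a1, the first enzyme of proline synthesis, had 486 and 482 on the MK4 arrays, against 148 and 364 on the MK3 arrays, and its difference was 0.40 without MK3 array 1 in place of 1.003. Psat1, of serine synthesis, read 1011 and 1000.1 in MK4 and 569 and 835 in MK3, and Shmt2, which passes a carbon from serine to folate in mitochondria, read 753 and 629.7 in MK4 and 364 and 551 in MK3.

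The tRNA synthetases for asparagine, serine, isoleucine and glycine are given as examples. Nars had 1526 and 1474 on the MK4 arrays, against 832 and 922 on the MK3 arrays, a difference of 0.77 ± 0.25. Sars had 863 and 832 on the MK4 arrays, against 568 and 571 on the MK3 arrays. Iars and Gars read 991 and 751 in MK4 and 362 and 723 in MK3 for Iars, and 1412 and 1126 in MK4 and 847 and 991 in MK3 for Gars. The arrays did not overlap in any of the 4, narrowly so for Iars, whose difference was 0.25 without MK3 array 1 in place of 0.73. Ddit4, an inhibitor of the growth kinase mTORC1, had 277 and 444 on the MK4 arrays, against 123 and 135 on the MK3 arrays, the list's second largest difference at 1.34 ± 0.29. Chac1, which degrades glutathione, read 195 and 165 in MK4 and 126 and 103 in MK3.

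**Figure D2:**
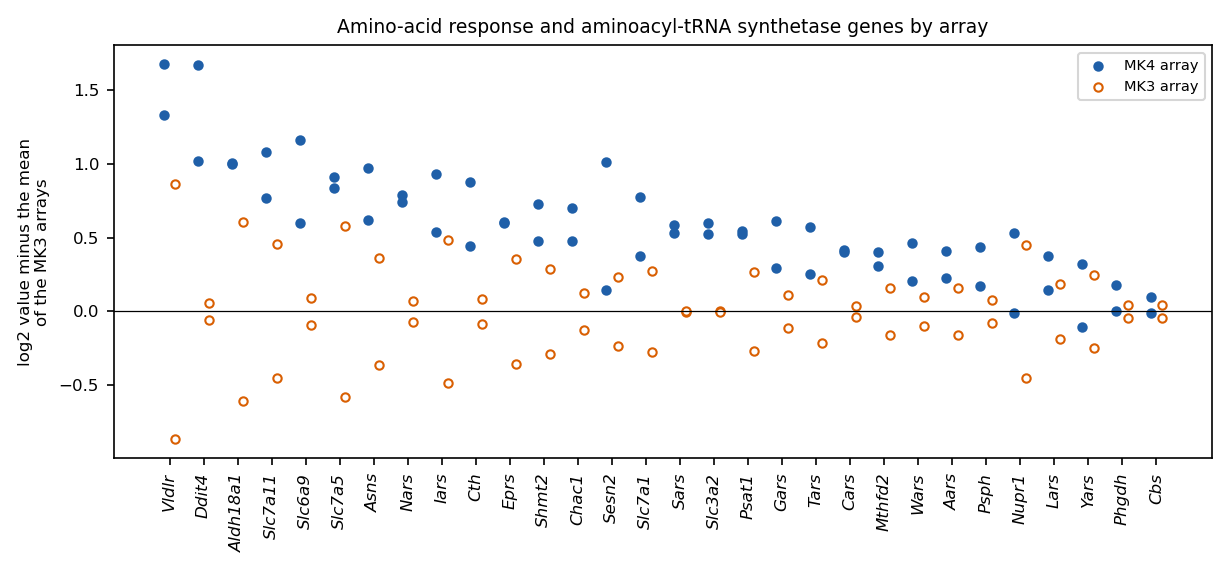
Log2 value of each array minus the mean of the 2 MK3 arrays (vertical axis) for the 30 tested genes of the amino-acid list, ordered by difference, with filled points for MK4 and open points for MK3. The MK4 points lie above both MK3 points for 24 genes, and the MK3 points of Vldlr, Aldh18a1 and Slc7a5 are far apart.

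Genes of endoplasmic reticulum folding and stress leaned the same way. Of 24 tested, 10 (41.7%, against 17.6% of all genes) were higher on both MK4 arrays and none lower on both, with a median of 0.31. Trib3, a pseudokinase induced by ATF4 and CHOP, had the largest difference at 1.28 ± 0.26, from 235 and 291 on the MK4 arrays, against 88.6 and 111 on the MK3 arrays. Herpud1, which serves the degradation of misfolded proteins, had 618 and 689 on the MK4 arrays, against 331 and 327 on the MK3 arrays. Both genes had tight arrays within each stage, and for Trib3 a second probe set had a difference of 1.24. Creld2, a secreted chaperone partner, had 282 and 353 on the MK4 arrays, against 121 and 230.0 on the MK3 arrays. The chaperone BiP (Hspa5) read 4366 and 4081 in MK4 and 2981 and 3212 in MK3 and CHOP itself (Ddit3) 490.5 and 479 in MK4 and 219 and 378 in MK3. The messenger of Atf4 overlapped between the stages, at 1956 and 1624 in MK4 and 1397 and 1669 in MK3, and Atf3, a related stress factor, ran the other way on array 1 of MK3, at 198 and 419.8 in MK4 and 947 and 297 in MK3. Under a common median 7 of 24 (29.2%) were higher and 2 (8.33%) lower, against 9.4% and 22.3% of all genes. Without MK3 array 1 the counts were 12 and 2 with a median of 0.12. As 39.8% of all genes were higher in that last setting, the 12 (50%) lay close to the background.

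The genes with the widest gaps on the higher side are given next, and were chosen by that gap. Dlk1, a Notch-family ligand made by fetal and stem cells, had 1468 and 2220.0 on the MK4 arrays, against 446 and 356 on the MK3 arrays. Its difference was 2.14 ± 0.68. Podxl, an anionic sialomucin of progenitors and vascular cells, had 427 and 329 on the MK4 arrays, against 99.0 and 113 on the MK3 arrays. Nt5e, the CD73 enzyme that makes adenosine, had 194 and 143 on the MK4 arrays, against 11.7 and 51.1 on the MK3 arrays. The MK4 arrays were more than 1 log2 unit above the MK3 arrays for each of these genes. Rian, a non-coding RNA of the same imprinted locus as Dlk1, had 139 and 272 on the MK4 arrays, against 52.0 and 65.5 on the MK3 arrays, but its other probe sets differed by 0.32 and 0.28 with overlapping arrays. Mal, a raft protein of membrane traffic, had 121 and 91.1 on the MK4 arrays, against 19.6 and 30.7 on the MK3 arrays. Inhbb, a subunit of activin, had 87.6 and 65.7 on the MK4 arrays, against 19.7 and 15.2 on the MK3 arrays, and its second probe set differed by -0.07.

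Dim signals made several further gaps less certain. Kctd14, Cort, B4galt7, Dlg4 and Sypl2 had MK4 signals between 52.3 and 87.0, not far above the filter of 46.7, and the other probe sets of Kctd14, B4galt7 and Dlg4 overlapped or ran the other way. Hilpda, a protein of lipid droplets induced by hypoxia, differed within MK4 itself, with 182 and 703 on the MK4 arrays, against 82.9 and 78.7 on the MK3 arrays.

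Genes with wide gaps on the lower side, again chosen by the gap, included others besides the liver genes. Lipoprotein lipase (Lpl), which frees fatty acids from circulating fat, had 698 and 979.6 on the MK4 arrays, against 3653 and 3119.5 on the MK3 arrays. Its difference of -2.01 ± 0.33 had an adjusted p of 0.367, the second lowest of all genes, and a second probe set differed by -1.58. Ccl12 and Cxcl10, which attract monocytes and T cells, read 5.32 and 5.71 in MK4 and 59.9 and 88.5 in MK3 for Ccl12, and 21.6 and 56.0 in MK4 and 218 and 164 in MK3 for Cxcl10. Ccl12 passed the filter only through the MK3 arrays and lay below it on every other array. S100a4, a calcium-binding protein of motile cells, had 93.8 and 27.1 on the MK4 arrays, against 501 and 257 on the MK3 arrays. Rnase4, a secreted ribonuclease, had 50.7 and 77.6 on the MK4 arrays, against 298 and 240.2 on the MK3 arrays. Rps4l, an autosomal relative of a ribosomal protein gene, read 8.49 and 28.0 in MK4 and 105 and 119 in MK3. It too passed the filter only through the MK3 arrays, so the size of its gap depends on the pseudocount. For Msx1 and Rimklb, at 10.1 and 8.81 in MK4 and 115 and 51.1 in MK3 for Msx1, and 15.6 and 15.9 in MK4 and 112 and 58.5 in MK3 for Rimklb, the other probe sets did not separate the stages.

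Megakaryocyte genes overlapped for the most part. Of 24 tested receptors and adhesion proteins, 3 (12.5%) were higher on both MK4 arrays and 2 (8.33%) lower, both shares below the background. P-selectin (Selp), the alpha-granule membrane protein that binds leukocytes, was the clearest, with 402 and 341 on the MK4 arrays, against 97.7 and 148 on the MK3 arrays and a difference of 1.51 ± 0.32. A second Selp probe set had a difference of 1.45. The fibrinogen receptor chain Itgb3 had 803 and 435 on the MK4 arrays, against 187 and 283 on the MK3 arrays, and Esam, an adhesion molecule of platelet junctions, had 456 and 594 on the MK4 arrays, against 173 and 419.9 on the MK3 arrays. For Itgb3 and Esam the MK4 arrays were again above both MK3 arrays, by a narrow margin for Esam, whose difference was 0.30 without MK3 array 1 in place of 0.90. Lower on both MK4 arrays were the Fc receptor chain Fcer1g, at 1681 and 1962 in MK4 and 3546 and 2252 in MK3, and the ADP receptor P2ry12, at 93.2 and 83.7 in MK4 and 97.3 and 169 in MK3.

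For several platelet genes the arrays of the stages overlapped. The von Willebrand factor receptor subunit Gp9 read 1115 and 989 in MK4 and 328 and 1420.3 in MK3, and Vwf itself read 1505 and 1276 in MK4 and 379 and 1538 in MK3. In both, array 1 of MK3 was the lowest and array 2 the highest of the 4. The chemokines Pf4 and Ppbp read 6493 and 5453 in MK4 and 4356 and 5604 in MK3 for Pf4, and 3819 and 3697 in MK4 and 2029.7 and 3961 in MK3 for Ppbp. The median receptor difference was 0.26 with all 4 arrays, -0.15 without MK3 array 1 and 0.75 without MK3 array 2, so its sign depended on which MK3 array was used. Alpha-granule genes had 3 of 22 higher (13.6%) and 1 lower (4.55%). The growth factor Vegfa was among the higher ones, with 219 and 447 on the MK4 arrays, against 84.4 and 198 on the MK3 arrays. Gas6, a ligand of the TAM receptor kinases, was the lower one, with 106 and 77.9 on the MK4 arrays, against 314 and 224 on the MK3 arrays. The gene symbol Gp1ba had no tested value here.

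Lineage transcription factors followed the same split. Gata1 read 736 and 662 in MK4 and 351 and 839 in MK3 and Nfe2 1099 and 1192 in MK4 and 456 and 1449 in MK3, with array 1 of MK3 below and array 2 above both MK4 arrays. Fli1 and Runx1 overlapped on the probe sets used. Fli1 read 343 and 243 in MK4 and 165 and 434 in MK3, and Runx1 505 and 332 in MK4 and 381 and 325 in MK3. Other Runx1 probe sets had differences of 0.46 and 0.25 with both MK4 arrays higher, and of -0.04 and 0.18 with overlapping arrays. Of 23 factors tested, 4 (17.4%) were higher and 2 (8.7%) lower. Meis1, a homeobox factor of stem cells and megakaryocytes, had the largest difference, 1.52 ± 0.57, from 309 and 195 on the MK4 arrays, against 37.1 and 142 on the MK3 arrays. The difference of Meis1 was 0.73 without MK3 array 1, and the list median was then -0.05 in place of 0.21. Mrtfa, the actin-regulated partner of SRF, was lower with 304 and 279 on the MK4 arrays, against 476 and 459.7 on the MK3 arrays, and its arrays were tight within each stage. Srf read 182 and 156 in MK4 and 232 and 201 in MK3, also lower on both MK4 arrays.

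Cytoskeletal genes of proplatelet formation leaned lower, with 7 of 33 (21.2%) below on both MK4 arrays and 1 (3.03%) above, and a median of -0.08 that was 0.03 without MK3 array 2. Myl9, a myosin light chain, had the largest difference, but array 2 of MK3 alone carried it, at 69.2 and 79.9 in MK4 and 86.3 and 607 in MK3. Gelsolin (Gsn), which severs actin filaments, had 853 and 1051 on the MK4 arrays, against 1979 and 1309 on the MK3 arrays, and the tubulin Tubb6 had 126 and 87.8 on the MK4 arrays, against 167 and 169 on the MK3 arrays. Of 14 genes of dense granules and secretion, 2 (14.3%) were higher on both MK4 arrays and 3 (21.4%) lower, against 17.6% and 12.6% of all genes.

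**Figure D3:**
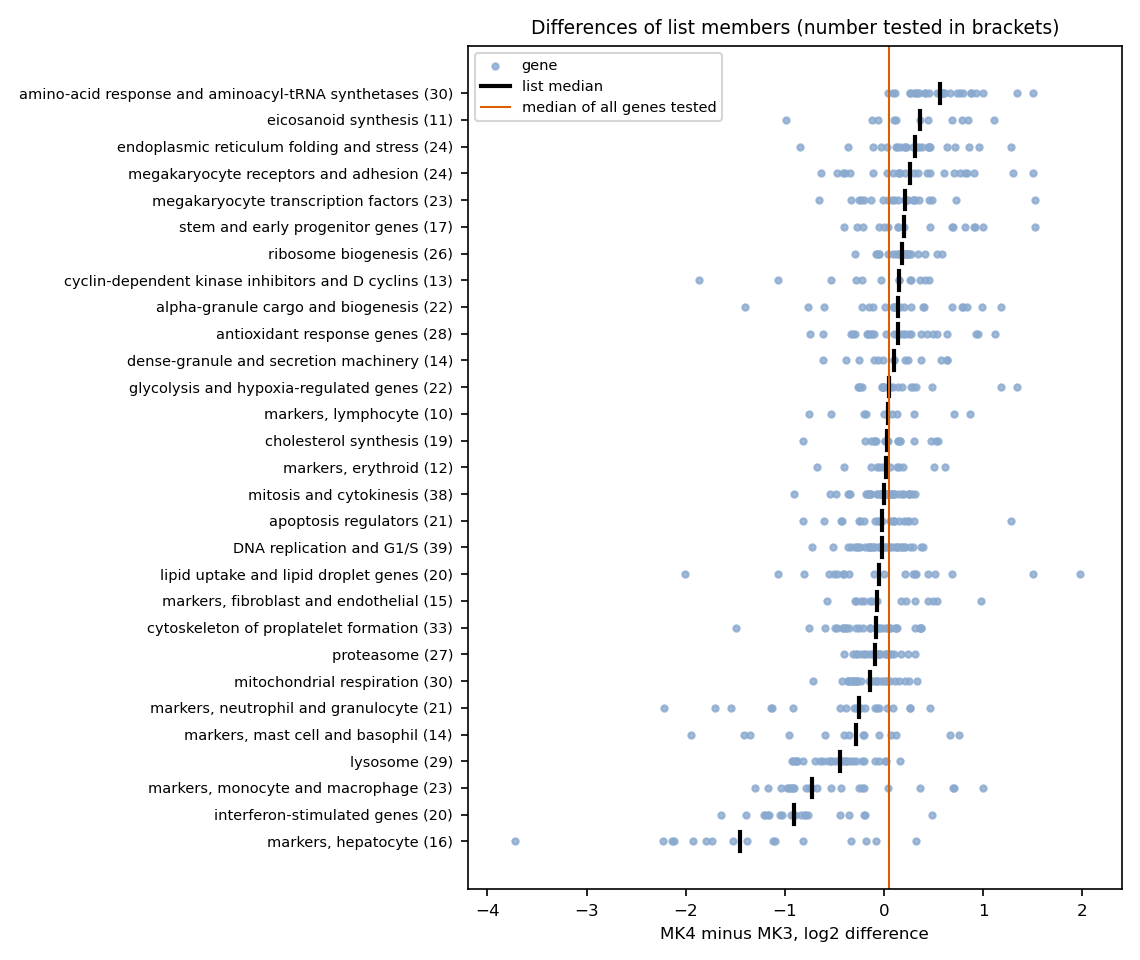
Log2 differences of MK4 minus MK3 (horizontal axis) for the tested members of the 29 lists, with 1 point per gene, a black bar at the list median and an orange line at the median of all genes (0.05). The amino-acid list lies wholly on the positive side, and the hepatocyte, interferon and macrophage lists have the lowest medians.

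Macrophage and lysosome genes leaned lower in MK4. Of 23 macrophage markers, 7 (30.4%) were below on both MK4 arrays and 1 (4.35%), the scavenger receptor Marco, above, with a median of -0.72. The mannose receptor Mrc1 had 203 and 428 on the MK4 arrays, against 909 and 622 on the MK3 arrays. Adgre1, a surface receptor that marks mouse macrophages, had 621 and 631 on the MK4 arrays, against 1775 and 1154 on the MK3 arrays. The complement subunit C1qb had 298 and 634 on the MK4 arrays, against 991 and 836 on the MK3 arrays. These probe sets separated the stages, although the other C1qb probe sets overlapped, with differences of -0.22 and -0.73, whereas the lysosomal membrane protein Cd68 did not, with 637 and 1699 on the MK4 arrays, against 3294 and 1208 on the MK3 arrays. The median without MK3 array 1 was -0.21 and without MK4 array 1 was -0.23. The lysosome list had 11 of 29 (37.9%) lower and 1 higher, with a median of -0.44 that was -0.18 without MK3 array 1 and -0.23 without MK4 array 1. Gusb and Man2b1, which break down glycans, read 362 and 467 in MK4 and 998 and 591 in MK3 for Gusb, and 879 and 871 in MK4 and 2082 and 1164 in MK3 for Man2b1, and the membrane protein Lamp1 read 2358 and 3058 in MK4 and 5771 and 3312 in MK3. The lysosome sum of MK4 lay on either side of MK3 array 2, at 41150.5 and 59740.4 in MK4 and 87938 and 54211 in MK3.

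Interferon-stimulated genes separated the MK4 arrays from each other. Of 20 tested, 10 (50%) were lower on both MK4 arrays and 1 higher, with a median of -0.90. Ifit3 had 87.3 and 483 on the MK4 arrays, against 801 and 592 on the MK3 arrays, and Gbp3, a GTPase of host defence, had 5.2 and 47.3 on the MK4 arrays, against 95.3 and 64.8 on the MK3 arrays. The antiviral enzyme Rsad2 shows the split most plainly, with 396 and 1925 on the MK4 arrays, against 1919 and 1696 on the MK3 arrays. Array 1 of MK4 was the lowest of the 4 for these genes, and array 2 was nearer to the MK3 arrays. The list median was -0.18 without MK4 array 1 and -1.51 without MK4 array 2. The summed signal of the list was 11148 and 19419 in MK4 and 21398 and 18987 in MK3. Ifitm1, a membrane protein that restricts viral entry, was the gene higher on both MK4 arrays, with 3445 and 3914 on the MK4 arrays, against 2740.0 and 2515 on the MK3 arrays.

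Of 21 neutrophil markers, 8 (38.1%) were lower on both MK4 arrays and 1 higher, with a median of -0.26. Lactoferrin (Ltf), a protein of the specific granules that form late in neutrophil maturation, had 527 and 350.0 on the MK4 arrays, against 1673 and 2539 on the MK3 arrays, a difference of -2.22 ± 0.55. The surface antigen Cd177 had 73.9 and 75.2 on the MK4 arrays, against 269.5 and 285 on the MK3 arrays, and cathelicidin (Camp) had 467 and 606 on the MK4 arrays, against 1093 and 2268 on the MK3 arrays. Ngp and Lcn2, also of specific granules, read 1988 and 2455 in MK4 and 4210.0 and 5702 in MK3 for Ngp, and 925 and 650.4 in MK4 and 1571 and 1873 in MK3 for Lcn2. Genes of the early primary granules included Elane at 1589 and 2104 in MK4 and 1682 and 1369 in MK3 and Ctsg at 1619 and 1777 in MK4 and 1914 and 1625 in MK3, and Mpo was lower on both MK4 arrays at 5268 and 4723 in MK4 and 6352 and 5395 in MK3. The neutrophil sum was 54623 and 44984 in MKP, 40652 and 40063 in MK3, 30844 and 29579 in MK4 and 17269, 31907 and 7976 in MK6, so MK4 lay below MK3 without overlap.

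Among 14 mast cell and basophil markers 5 (35.7%) were lower on both MK4 arrays and 3 (21.4%) higher. Prg2 and Epx, granule proteins of eosinophils, had 59.3 and 54.9 on the MK4 arrays, against 334 and 208 on the MK3 arrays for Prg2 and 54.9 and 65.8 on the MK4 arrays, against 231 and 135 on the MK3 arrays for Epx. The mast-cell carboxypeptidase Cpa3 had 357 and 186 on the MK4 arrays, against 930.1 and 548 on the MK3 arrays. The arrays of the stages did not overlap for these 3 genes, and MK3 array 1 was the highest in each. Erythroid markers had 1 of 12 (8.33%) higher and 2 (16.7%) lower, and lymphocyte markers 1 of 10 (10%) and 2 (20%). Fibroblast and endothelial markers had 5 of 15 (33.3%) higher and 2 (13.3%) lower, against 17.6% and 12.6% of all genes. None of the marker genes was at 0, since the deposited intensities are all positive, and 23 of the 134 marker entries on the array did not pass the filter.

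**Figure D4:**
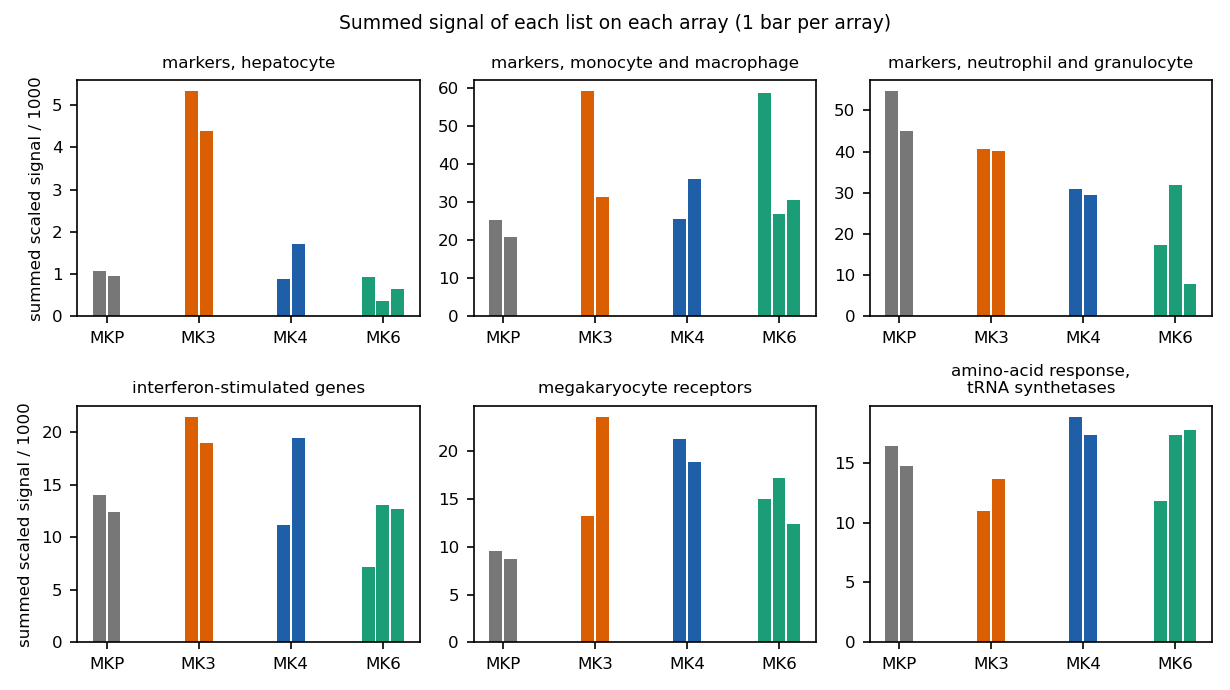
Summed scaled signal of 6 lists (vertical axis, in units of 1000, starting at 0), with 1 bar per array in the order MKP, MK3, MK4 and MK6. The hepatocyte sum is highest on the MK3 arrays, the amino-acid sum is lower on both MK3 arrays than on both MK4 arrays, and the macrophage and receptor sums differ strongly between the MK3 arrays.

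In mitochondrial respiration 12 of 30 genes (40%) were lower on both MK4 arrays and 2 (6.67%) higher, although the differences were small, with a median of -0.14. Sdhb, the iron-sulphur subunit of succinate dehydrogenase, had the largest, -0.72 ± 0.26, from 840.2 and 761 on the MK4 arrays, against 1463 and 1204 on the MK3 arrays. The other subunits Sdha, Sdhc and Sdhd were also lower on both MK4 arrays, at 784 and 790.1 in MK4 and 1088 and 878 in MK3 for Sdha, 495 and 431 in MK4 and 630.3 and 558 in MK3 for Sdhc, and 665 and 686 in MK4 and 923 and 781 in MK3 for Sdhd. Atp5o, of the ATP synthase stalk, had 834 and 709.6 on the MK4 arrays, against 1023 and 1054 on the MK3 arrays. A second Atp5o probe set overlapped between the stages, with a difference of -0.02. Cox4i1, of cytochrome oxidase, had 1901 and 1793 on the MK4 arrays, against 2710.1 and 2096 on the MK3 arrays. The count of lower genes was 18 of 30 without MK3 array 1, where 25.5% of all genes were lower, and also 18 under a common median, where 22.3% were. It was 9 under quantile normalization (15.6% of all genes) and 8 with the mean of all probe sets of a gene (12% of all genes).

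Antioxidant genes included 9 of 28 (32.1%) higher and 3 (10.7%) lower, against 17.6% and 12.6% of all genes. Under a common median 7 (25%) were higher and 7 (25%) lower, against 9.4% and 22.3% of all genes. Sulfiredoxin (Srxn1), which repairs oxidised peroxiredoxins, had 772 and 852 on the MK4 arrays, against 221 and 599 on the MK3 arrays, and its difference was 0.43 without MK3 array 1 in place of 1.12. The quinone reductase Nqo1 had 84.9 and 126 on the MK4 arrays, against 41.8 and 50.9 on the MK3 arrays, and thioredoxin reductase (Txnrd1) had 958 and 938 on the MK4 arrays, against 586 and 627 on the MK3 arrays. These 3 are known targets of the factor NRF2. Haem oxygenase (Hmox1), another target, was lower on both MK4 arrays, with 1342 and 1610.0 on the MK4 arrays, against 3001 and 2036 on the MK3 arrays. Genes of lipid uptake and droplets ran in both directions, with 5 of 20 (25%) higher and 2 (10%) lower. None of the 19 cholesterol synthesis genes tested separated the stages.

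Growth and cell-cycle lists showed little difference, whereas stem and progenitor genes leaned higher. In DNA replication and G1/S 2 of 39 genes (5.13%) were higher and 4 (10.3%) lower, with a median of -0.03, and E2f1, which drives S-phase entry, had 152 and 142 on the MK4 arrays, against 288 and 222 on the MK3 arrays. In mitosis and cytokinesis 3 of 38 (7.89%) were higher and 4 (10.5%) lower, with a median of -0.00332. Kif23 and Kif20a, kinesins of the late division spindle, read 88.7 and 48.8 in MK4 and 159.8 and 118 in MK3 for Kif23, and 77.2 and 60.9 in MK4 and 107 and 97.3 in MK3 for Kif20a. The kinase inhibitor Cdkn2b, which blocks D-type cyclin complexes, had 30.4 and 15.7 on the MK4 arrays, against 67.1 and 60.3 on the MK3 arrays. Ribosome biogenesis had 2 of 26 genes (7.69%) higher and 1 (3.85%) lower, with 21 positive differences and a median of 0.18. Stem and progenitor genes had 6 of 17 (35.3%) higher and 1 (5.88%) lower, against 17.6% and 12.6% of all genes. Hoxa9 had 157 and 127 on the MK4 arrays, against 56.5 and 69.7 on the MK3 arrays, Cd34 read 184 and 212 in MK4 and 94.5 and 117 in MK3, and Myc read 280.4 and 334 in MK4 and 167 and 204 in MK3, whereas Kit was lower at 153 and 133 in MK4 and 159.7 and 192 in MK3. Proteasome genes had 1 of 27 (3.7%) higher and 6 (22.2%) lower, and apoptosis genes 3 of 21 (14.3%) and 4 (19%). Kinase inhibitors and D cyclins had 0 of 13 higher and 3 (23.1%) lower. Glycolysis genes had 3 of 22 (13.6%) higher and 3 (13.6%) lower, and eicosanoid genes 2 of 11 (18.2%) and 1 (9.09%). Casp12, an inflammatory caspase, had the largest apoptosis difference, with 28.2 and 71.7 on the MK4 arrays, against 7.37 and 13.2 on the MK3 arrays, and the prostaglandin synthase Hpgds was lower with 73.9 and 74.7 on the MK4 arrays, against 207 and 126 on the MK3 arrays.

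The second step was then set against the first (MK3 against MKP). These steps share the MK3 arrays, so an array that stands apart moves both in opposite directions, and no likeness between them was computed. The change from step to step passed the test for 3 genes (0.032%), all with a lower second than first step (limma, Benjamini-Hochberg over 9382 genes). Ttr had 45.4 and 29.3 in MKP, 671 and 455 in MK3, 18.7 and 39.7 in MK4 and 5.91, 5.52 and 6.29 in MK6. The difference of the steps was -7.17 (adjusted p = 0.00309, limma). Ttr passed the filter on low values only through the MK3 arrays and lay below it on every other array, so this size depends on the pseudocount. Lpl had 286 and 293 in MKP, 3653 and 3119.5 in MK3, 698 and 979.6 in MK4 and 969, 986 and 519 in MK6, and the difference of its steps was -5.49 (adjusted p = 0.00526). Serpinb6a, an inhibitor of serine proteases inside cells, had 209 and 194 in MKP, 1227 and 1324 in MK3, 459 and 748 in MK4 and 718, 594 and 605 in MK6, with -3.67 (adjusted p = 0.0226). In all 3 the MK3 arrays were the highest of the series. None of the 3 calls remained without MK3 array 1, where each adjusted p was 0.193. The Lpl call was also lost with the mean of all probe sets of a gene (adjusted p = 0.0526), and that of Serpinb6a under quantile normalization (adjusted p = 0.0717) and with no intensity trend in limma (adjusted p = 0.0634).

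**Figure D5:**
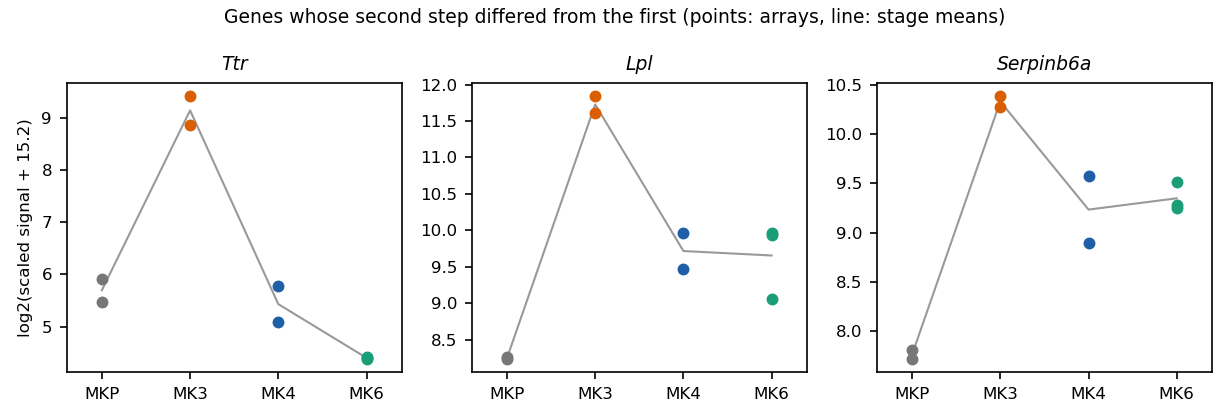
Log2 signal (vertical axis, a different range in each panel) of Ttr, Lpl and Serpinb6a on every array by stage, with 1 point per array and a line through the stage means. Both MK3 arrays lie above all other arrays in each panel.

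Opposite profiles were seen for several genes higher in MK4. Dlk1 had 2509 and 2476 in MKP, 446 and 356 in MK3, 1468 and 2220.0 in MK4 and 229.9, 1872 and 665 in MK6, and Podxl had 521 and 483 in MKP, 99.0 and 113 in MK3, 427 and 329 in MK4 and 169.8, 622 and 806 in MK6. Mal had 76.4 and 104 in MKP, 19.6 and 30.7 in MK3, 121 and 91.1 in MK4 and 122, 77.1 and 115 in MK6. In these 3 genes both MK3 arrays lay below all MKP and MK4 arrays. Selp was different, with 125 and 140.3 in MKP, 97.7 and 148 in MK3, 402 and 341 in MK4 and 162, 298 and 279.7 in MK6, so that MKP and MK3 overlapped and MK4 stood above both. The amino-acid sum was 16427 and 14703 in MKP, 10980.4 and 13599 in MK3, 18791 and 17316 in MK4 and 11828, 17295 and 17747 in MK6, with both MK3 arrays below all MKP and MK4 arrays and MK6 array 1 between the MK3 arrays.

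Against the last step (MK6 against MK4), which shares the MK4 arrays, no difference of the steps passed the test (0 of 9382 genes by limma at an adjusted p below 0.05, and 267 or 2.85% at an unadjusted p below 0.05). The 3' to 5' ratio of the beta-actin control was 1.49, 1.33 and 3.21 on the MK6 arrays, against 1.04 and 1.09 on the MK4 arrays. The part of RNA quality in the MK6 values was not tested. Antioxidant genes give examples of differences with the same sign in both steps. Srxn1 had 193 and 253 in MKP, 221 and 599 in MK3, 772 and 852 in MK4 and 2370.3, 2234 and 1799.6 in MK6, and Nqo1 had 53.6 and 76.6 in MKP, 41.8 and 50.9 in MK3, 84.9 and 126 in MK4 and 509.9, 629 and 545 in MK6. The MK6 arrays lay above all others for both genes on the probe sets used. The other probe sets of Srxn1 did not repeat this on every MK6 array. On one of them the MK6 arrays read 1002, 742 and 245, against 475 and 455 on the MK4 arrays. On another they read 1463, 936 and 322, against 616 and 482 on the MK4 arrays, so MK6 array 3 was below MK4 on each. On a dimmer one MK6 array 2 was the lowest array, at 42.2. Vldlr, at 99.5 and 93.6 in MKP, 55.3 and 219 in MK3, 395 and 309 in MK4 and 456, 784 and 857 in MK6, also had its highest arrays in MK6. Itgb3, by contrast, had 262 and 269.6 in MKP, 187 and 283 in MK3, 803 and 435 in MK4 and 143, 56.4 and 15.02 in MK6, with MK4 the highest stage and all MK6 arrays below it. Herpud1 also had its highest arrays in MK4, at 280.1 and 535 in MKP, 331 and 327 in MK3, 618 and 689 in MK4 and 250.2, 255 and 131 in MK6.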

How the data were processed

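Probe set intensities of 9 single-colour Affymetrix MOE430A arrays, on a linear scale, were used as deposited. The authors produced them with MAS5, per the submitters' processing notes, and its version is not given here. Arrays were placed in their stage by title, and replicates were numbered in accession order. Of 22690 probe sets, 20380 had 1 gene symbol in the platform annotation and were used, 691 had several, 1555 had none and 64 were controls. Symbols were updated through a RefSeq table of GRCm38.p6.

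Each array was multiplied to a trimmed mean of 161, with 2% of values left off each end. The pseudocount of 15.2 and the filter of 46.7 are the 20th and 40th percentiles of all scaled values. Folds on the log2(value + pseudocount) scale understate the change of dim genes, and no change in total RNA per cell can show after scaling. For each gene, the probe set with the highest mean log2 value was used. One limma fit (version 3.58.1 in R 4.3.3) held all 9 arrays with a mean per stage and a shared spread, followed by eBayes with its trend option, on 5 residual degrees of freedom. A gene counted as called when its p, adjusted by Benjamini-Hochberg, was below 0.05. The fit was tested on simulated data. The number of arrays limits the precision.

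Named genes were the 15 on each side with the widest gap whose higher stage passed the filter on both arrays, called genes, the 3 members of each list with the largest absolute difference, and a fixed set of platelet genes and lineage factors. Other list members were named after their values were seen. The comparison, the 29 gene lists and the alternatives were chosen with earlier results of these data known, so no list is independent evidence of its direction. Alternatives covered the pseudocount, filter, scaling, probe set rule, variance model and arrays left out.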

Additional observations from a re-analysis of the deposited data

Results flagged for a closer look

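A set of 3 genes changed differently in the second step than in the first, by a test of the difference itself. The second less the first step was -7.17 for Ttr, -5.49 for Lpl and -3.67 for Serpinb6a on the log2 scale. Ttr passed the filter on low values only through the MK3 arrays, where it was high, and lay below the filter on every other array. Both steps use the MK3 arrays, so a high value in MK3 enters both of them with opposite sign. All 3 calls were lost without MK3 array 1. Serpinb6a was also lost without any 1 of MKP array 1, MKP array 2, MK3 array 2, MK4 array 1 and MK6 array 3, with adjusted p from 0.0692 to 0.190. It was lost under quantile normalization (0.0717) and with no intensity trend (0.0634) too, and Lpl with the mean of all probe sets of a gene (0.0526). The summed hepatocyte markers, of which Ttr is one, were highest in MK3, and their part in the Lpl and Serpinb6a differences was not tested.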

How the results depend on the processing

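No paired analysis was possible because the titles give the MK4 and MK3 arrays no replicate numbers. Of the counts, the gene lower in MK4 was no longer called with the lower pseudocount or with the stricter filter at the 60th percentile (0 genes each). With 2 MK6 arrays left out together, either 2 and 3 or, a choice made after seeing the data, 1 and 3 (those with the highest beta-actin ratios), 3 genes were lower (Ttr, Lpl and Cd177) and 1 higher (Dlk1), and the steps differed for 17 genes from the first. From the last step 24 genes differed with MK6 arrays 2 and 3 out. A common median gave 876 genes higher and 2076 lower without overlap and 7 with differing first steps, and the higher pseudocount gave 12. The cause of these changes was not tested, apart from the fewer arrays in the fit.

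Leaving out 1 array gave 0 to 1 genes called higher, 0 to 1 called lower, 0 to 32 differing from the first step and 0 to 3 from the last. Non-overlap was then judged on 3 arrays, with 2848 to 3736 genes higher and 2360 to 3381 lower. Differences changed sign with an array left out for Fli1 (-0.57 to 0.76), Gata1 (-0.26 to 0.96), Gp9 (-0.43 to 1.63), Hnf4a (-0.10 to 0.75), Nfe2 (-0.34 to 1.30), Ppbp (-0.076 to 0.88), Vwf (-0.15 to 1.83), Runx1 (-0.081 to 0.50), Rsad2 (-2.15 to 0.093) and Ctsg (-0.17 to 0.061). The sign also changed for Fli1 with a common median (-0.024) and for Ctsg with quantile normalization (0.054). The other genes given with values kept their sign in every setting run. Without MK3 array 1 the difference kept its sign but was over 1.5 times smaller for 30 of 117 genes named. The median difference of 18 of the 29 lists changed sign in at least 1 setting. Those of the hepatocyte, amino-acid, endoplasmic reticulum, macrophage, lysosome, interferon, neutrophil and respiration lists did not. Nor did those of the stem and progenitor, antioxidant and eicosanoid lists. Signals near the filter and 2 arrays per stage limit what can be called.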
